A study of Mus musculus with 3 samples.

Results

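Chaperones are proteins that help other proteins reach or keep their folded shape. The genes described here were 82 chaperone and folding genes of adult murine retinal pigment epithelium (RPE), of 15597 mouse genes that could be named on the array. They were chosen by symbol, from the mouse probes whose transcript accession belongs to a heat shock protein (Hsp) gene, a J protein gene (Dnaja, Dnajb or Dnajc), a subunit of the CCT chaperonin (Cct or Tcp1), a disulfide isomerase (Pdia or P4hb), a calnexin or calreticulin gene (Canx or Calr) or a Bag gene. Hspb1 and Hspg2 were left out. The rule itself uses symbols only. Of 94 annotated genes with such a symbol, 12 had no matched spot and were not analysed here, among them Hspa1b, Bag5, Hspb6 and Pdia6. By the compartment where the protein works, 53 genes were cytosolic or nuclear, 18 belonged to the endoplasmic reticulum (ER), 10 to mitochondria, and Dnajc22 was given none.

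RPE sheets were isolated from C57BL/6 mice aged 2.5 to 3 months, and RNA of 3 independent samples was hybridized to 3 single-colour MEEBO oligonucleotide arrays, named replicates 1, 2 and 3. All arrays belonged to this 1 group, so no control tissue stands beside them and every value was read against control spots of its own array. The plain intensity is the median foreground minus the median local background of a spot, in scanner units. A gene was called when at least 1 of its probes exceeded the 95th percentile of the 94 spots of the mCN control class on the same array (limma, one-sided, Benjamini-Hochberg adjusted p under 0.05 over 35078 mouse probes), and its margin is the mean normalized log2 intensity above that threshold. The sources do not say what the mCN spots contain, and all calls and margins rest on reading them as background. The p-values measure the spread among these 3 samples, and a gene that was not called may still be transcribed.

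The threshold was 132.6, 72.4 and 53.85 scanner units on replicates 1, 2 and 3, and the mean plain intensity of mouse spots was 831, 476 and 316, so most genes had their highest plain value on replicate 1. No member spot was saturated. Of 12 RPE markers 11 were called, all but Best1, with Rpe65 at 44989, 38126 and 20461. Keratins of cornea and conjunctiva were low on replicate 1 only, with Krt12 at 90, 16428 and 25864. Rod genes were highest on replicate 3, where 7 of 8 exceeded the threshold, against 3 on replicate 1 and 4 on replicate 2. Per the file headers, replicate 3 had its own scan session, and its image is named a redip, a term the sources do not explain. Pearson's r over called probes was 0.971 for replicates 1 and 2, 0.945 for 1 and 3, and 0.978 for 2 and 3. These correlations are across probes, which are not independent replicates.

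Protein folding is divided among machines. Hsp70 proteins bind exposed stretches of unfolded chains in cycles driven by ATP, which J proteins start and nucleotide exchange factors such as the Bag proteins and Hsp110 end, while Hsp90 finishes clients such as kinases and receptors, and chaperonins enclose a chain in a barrel. The ER has its own Hsp70 and Hsp90, lectin chaperones for glycoproteins and isomerases that form disulfide bonds, and mitochondria have an Hsp70 and an Hsp60 barrel of their own. Unfolded protein in the cytosol induces chaperone genes through heat shock factor 1, and unfolded protein in the ER induces others through the unfolded protein response. RPE cells take up shed photoreceptor outer segments every day and secrete proteins toward both the retina and the choroid.

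Those 2 responses act on short promoter elements, and promoter stretches that hold them are shown because members of both inducible groups are described below. They come from RefSeq promoter windows of GRCm38.p6, which run from 250 bases before to 50 after each gene's start, and 67 of the 82 members matched at least 1 window. The letters searched on both strands were GAANNTTCNNGAA for the heat shock element and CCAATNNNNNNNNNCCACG for the ER stress element. In the stretches, given 5′ to 3′ on the strand of the gene, capitals mark the fixed letters of a match or of its reverse complement.
Hspa5 (chr2:34772005-34772063, plus strand): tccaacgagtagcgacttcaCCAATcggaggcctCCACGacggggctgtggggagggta
Hsp90b1, farther match (chr10:86705618-86705676, minus strand): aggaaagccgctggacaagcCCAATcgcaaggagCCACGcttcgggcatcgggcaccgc
Hsp90b1, nearer match (chr10:86705513-86705571, minus strand): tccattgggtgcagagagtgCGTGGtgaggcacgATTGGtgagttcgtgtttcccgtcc
Canx (chr11:50325780-50325838, minus strand): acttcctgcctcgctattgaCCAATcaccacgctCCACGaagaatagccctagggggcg
Calr (chr8:84847055-84847113, minus strand): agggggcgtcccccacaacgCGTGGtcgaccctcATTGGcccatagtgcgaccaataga
Dnajc3 (chr14:118937807-118937865, plus strand): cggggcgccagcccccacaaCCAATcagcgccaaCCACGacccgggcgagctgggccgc
Hspe1 (chr1:55088044-55088096, plus strand): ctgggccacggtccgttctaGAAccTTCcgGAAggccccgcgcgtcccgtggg
Dnajb6 (chr5:29735832-29735884, plus strand): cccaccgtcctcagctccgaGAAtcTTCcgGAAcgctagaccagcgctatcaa

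The ER stress element was found in windows of 5 of the 67 members, Calr, Canx, Dnajc3, Hsp90b1 and Hspa5. It was found in 0.137% of all 27025 genes with a window, and in 0.119% of all 32851 windows. The heat shock element was found in windows of 4 members, Dnajb6, Hspd1, Hspe1 and Hsph1, in 0.662% of all genes and in 0.603% of all windows. Hspd1 and Hspe1 lie head to head and share the stretch printed for Hspe1, where a second match overlaps the first. In Hsph1 the matches lay 15 to 48 bases past its starts and are not printed. A shorter ER stress element, ATTGGNCCACG, was found in 0.0365% of windows, in 0.0444% of genes and in 1 member, Dnajb11, also past the start. Canx and Dnajb6 are on neither of the inducible lists described below. No match to the heat shock element was found for Dnajb1, Hspa1a, Hspa8 or Hsp90aa1, though not every member matched a window. The search covers these letters in these windows only.

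Of the 82 chaperone and folding genes, 53 were called (64.6%), against 39.8% of all named genes. Of the 125 member probes 52.0% were called, against 31.5% of the 23071 named probes and 25.5% of all mouse probes, which include spots with no gene name. On plain intensities 55 members exceeded the threshold on all 3 arrays, against 41.8% of all named genes, and 49 members exceeded a normalized intensity of 500 on all 3 in the deposited value table, against 33.9%. The median margin was 1.48 over the members and −0.18 over all named genes, on the log2 scale. Adjusted p of called members ran from 7.71e-07 for P4hb and Bag1 to 0.0226 for Dnajc27. Mitochondrial genes were called in 8 of 10 cases, cytosolic and nuclear genes in 34 of 53 and ER genes in 11 of 18, with median margins of 2.64, 1.36 and 1.54. Genes of a list are not replicates, and the shares of the compartments were not compared by a test.

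**Figure D1:**
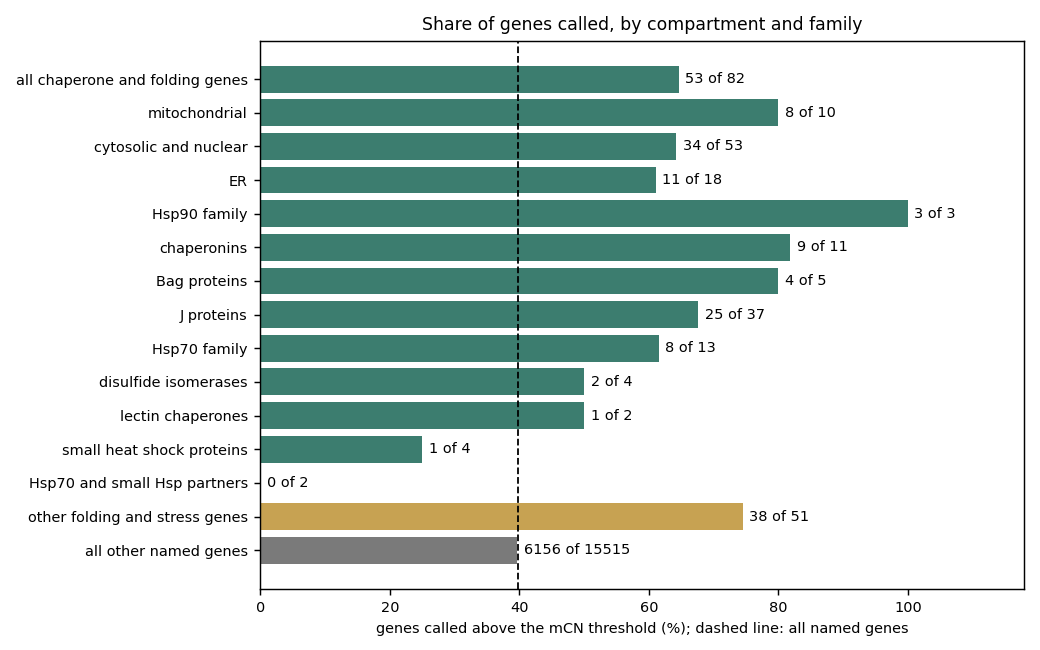
Each bar gives the percentage of genes called above the mCN threshold, with counts beside it, for the chaperone and folding genes, their compartments and families (green), other folding and stress genes (yellow) and all other named genes (grey). The dashed line is the 39.8% of all named genes, and the bars of small heat shock proteins and of Hsp70 and small Hsp partners end below it.

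Among cytosolic Hsp70 proteins, 6 of 10 were called. Hspa8, the constitutive Hsc70 that also strips clathrin coats, had plain intensities of 32914, 29000 and 17359, a margin of 7.53 ± 0.28 (SD, n = 3) and 3 of 3 probes called. Hspa4, an Hsp110-type exchange factor, had 2705, 1559 and 843 and a margin of 3.53 ± 0.15, with 1 of 2 probes called. Hspa4l, of the same type, was called as well. Both had their highest plain value on replicate 1, the brightest array.

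Hspa1a and Hsph1 did not have their lowest plain value on replicate 3, the dimmest array. Hspa1a, the inducible Hsp70, had 240, 183 and 234, a margin of 1.06 ± 0.63 and an adjusted p of 0.0149 (limma). Hspa1b is nearly identical in sequence, so the Hspa1a probe may read both. Hsph1, the inducible Hsp110, had 1090, 1429 and 1789 and a margin of 3.44 ± 1.15. Its plain intensity was lowest on replicate 1, which was the case for 2 of the 53 called members, Hsph1 and Dnajb1, and for 1.11% of all called genes. Hspa2, known from testis, had 331, 190 and 66 and a margin of 0.67 ± 0.41. Hspa1l, Hspa12a, Hspa12b and Hspa14 were not called.

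Both cytosolic Hsp90 genes were called. Hsp90ab1, the constitutive form, had 10441, 8275 and 5358 and a margin of 5.83 ± 0.38, with 3 of 3 probes called. Hsp90aa1, the form that heat shock induces, had 5711, 5309 and 3113 and a margin of 5.07 ± 0.51. Of its 3 probes 2 were called, and the third read 26, 17 and 14. Processed pseudogenes of Hsp90 and Hspa8 share much of their sequence, and cross-hybridization between them was not tested.

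J proteins stimulate the ATPase of Hsp70 and deliver clients to it. In the cytosol and nucleus 14 of 21 were called, with margins from 0.40 to 6.08. Dnajb1, the main Hsp40 of the heat shock response, had 7397, 11379 and 10270 and a margin of 6.08 ± 1.05. Its reading was lowest on replicate 1 also on the plain scale, although that array was the brightest. Dnajc5, the cysteine string protein of secretory vesicles, had 3553, 2074 and 1064 and a margin of 3.91 ± 0.18, with 2 of 2 probes called. Dnajb6, a suppressor of protein aggregation, had 2203, 801 and 523 and a margin of 2.92 ± 0.20, with 1 of 2 probes called. Dnajc8, a splicing-associated J protein, had 1195, 520 and 145 and a margin of 1.89 ± 0.66, again with 1 of 2 probes called. Its log2 intensity above the threshold was 1.13 on replicate 3, against 2.34 and 2.21 on replicates 1 and 2.

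Dnajc27, a J protein with a Rab-like GTPase domain, was called with the smallest margin, 0.40 ± 0.20, from 236, 127 and 63. Dnaja1, a farnesylated Hsp40, was not called by any of 3 probes, and the best read 93, 57 and 63, at a margin of −0.10 ± 0.23. The other called J proteins of these compartments were Dnaja2, Dnaja4, Dnajb2, Dnajb4, Dnajc2, Dnajc6, Dnajc7, Dnajc12 and Dnajc17. Dnajb3, Dnajb7, Dnajb8, Dnajb13, Dnajc9 and Dnajc24 were not called.

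The CCT chaperonin folds actin and tubulin and is built from 8 different subunits, each the product of its own gene, with Cct6b as a testis form of Cct6a. Of the 9 genes 7 were called. Cct8 had 9459, 6535 and 4760 and a margin of 5.61 ± 0.32. Cct6a had 2661, 1238 and 585 and a margin of 3.26 ± 0.25. Both stood above the threshold on every array.

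The readings of Cct5 were 756, 284 and 264, with a margin of 1.70 ± 0.24. Tcp1, the first subunit, had 619, 332 and 202 and a margin of 1.57 ± 0.06, with 1 of 2 probes called. Cct3 had 646, 288 and 160 and a margin of 1.42 ± 0.16. All of these lay above the threshold on each array by a smaller margin.

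Among the called subunits, those nearest to the threshold were Cct7, with 308, 139 and 175 and a margin of 0.92 ± 0.40, and Cct4, with 233, 134 and 105 and a margin of 0.60 ± 0.13. Cct2 was not called, with 91, 61 and 33 and a margin of −0.28 ± 0.15, from 1 probe. Subunits are joined in fixed proportion in the protein complex, but intensities of different probes do not compare transcript levels between genes. Cct6b was not called either.

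Bag proteins release the client from Hsp70, and 4 of 5 were called. Bag1, a cochaperone that also links Hsp70 to the proteasome, had 19804, 9891 and 7330 and a margin of 6.37 ± 0.07. Bag3, which pairs with Hspb8 in chaperone-assisted autophagy, had 2729, 1329 and 984 and a margin of 3.54 ± 0.13. Bag4 and Bag6 were called by both of their probes each, and Bag2 was not called.

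Small heat shock proteins hold unfolded chains without ATP. Of 4 genes only Hspb8 was called, with 800, 380 and 640, a margin of 2.24 ± 0.74 and its lowest reading on replicate 2. Hspb2, known from muscle, had 159, 68 and 44 and a margin of −0.03 ± 0.17. Hspb3 and Hspb7 were not called. Hspbp1, an Hsp70 exchange factor, read 184, 79 and 55, at a margin of 0.12 ± 0.13 that did not pass the test (adjusted p = 0.343, limma), and Hspbap1 was not called.

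In the ER, 11 of 18 genes were called, and the disulfide isomerases were divided. P4hb, the isomerase Pdi that is also a subunit of prolyl hydroxylase, had 24930, 15438 and 10819 and a margin of 6.88 ± 0.09. Pdia3, the isomerase that works with calnexin and calreticulin, had 15624, 7318 and 6707 and a margin of 6.07 ± 0.23. Pdia4 read 206, 52 and 36, at a margin of −0.09 ± 0.40, and exceeded the threshold on replicate 1 only. Pdia5 read 36, 31 and 57 with the better of 2 probes, at a margin of −0.43 ± 0.43. Neither of these 2 genes passed the test.

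Hsp90b1, the ER Hsp90 known as Grp94, had 8661, 5476 and 3703 and a margin of 5.37 ± 0.22. Hspa5, the ER Hsp70 known as BiP, had 486, 389 and 313 and a margin of 1.73 ± 0.46. Both genes were above the threshold on all arrays. Both carry the ER stress element shown above, and so do Canx, which was called, and Calr and Dnajc3, which were not. Hspa13, an Hsp70-like ER protein, had 6, 13 and 5 with the better of 2 probes, and was not called.

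Of the lectin chaperones, Canx had 1910, 898 and 615 and a margin of 2.98 ± 0.05, with 1 of 2 probes called. Calr read 9, 10 and 10 with its 1 probe, at a margin of −1.08 ± 0.06. Calreticulin is one of the abundant ER proteins of most cells, and a single probe at the level of the control spots does not show its transcript to be absent. Canx and Calr have the same promoter letters and opposite calls.

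Among ER J proteins 6 of 9 were called. Dnajb11, a cofactor of BiP, had 10057, 4124 and 2605 and a margin of 5.15 ± 0.17. Dnajb9, induced by the unfolded protein response, had 555, 398 and 511 and a margin of 2.01 ± 0.71, with 1 of 2 probes called. Dnajc10, a J protein that reduces disulfides, had 342, 155 and 67 and a margin of 0.61 ± 0.34, with 1 of 2 probes called. After normalization Dnajb9 was lowest on replicate 1, and Dnajc10 and Dnajb11 on replicate 3.

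Dnajc3, which dampens the kinase Perk, had 21, 13 and 28 and a margin of −0.82 ± 0.21. Dnajc18 read 194, 75 and 54, at a margin of 0.12 ± 0.17 that did not pass the test (adjusted p = 0.456, limma). Dnajb12, Dnajc1 and Dnajc16 were also called, and Dnajc14 was not.

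Mitochondrial chaperones had margins from 1.36 to 4.53 where called. Hspd1, the Hsp60 barrel, had 5569, 2925 and 1835 and a margin of 4.53 ± 0.07, with 2 of 2 probes called. Hspe1, its Hsp10 lid, had 3771, 1816 and 1836 and a margin of 4.12 ± 0.38. Hspd1 and Hspe1 are transcribed in opposite directions from the shared promoter shown above, and both were above the threshold on every array.

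Hspa9, the mitochondrial Hsp70 mortalin, had 2667, 1617 and 1091 and a margin of 3.67 ± 0.23. Dnaja3, its J protein, had 4129, 2218 and 1361 and a margin of 4.12 ± 0.09, with 1 of 2 probes called. Dnajc15, tied to the inner membrane import motor, had 542, 264 and 184 and a margin of 1.39 ± 0.05. Each of these 3 genes was above the threshold on all arrays.

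Dnajc19, also of the import motor, had 42, 18 and 13 and a margin of −0.85 ± 0.16 with the better of 2 probes. Dnajc11 was not called by any of 3 probes, while Dnajc4, Dnajc28 and Dnajc30 were called. The median SD of called mitochondrial members was 0.10, against 0.21 over all called genes. It was 0.22 for cytosolic and nuclear members and 0.23 for ER members.

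**Figure D2:**
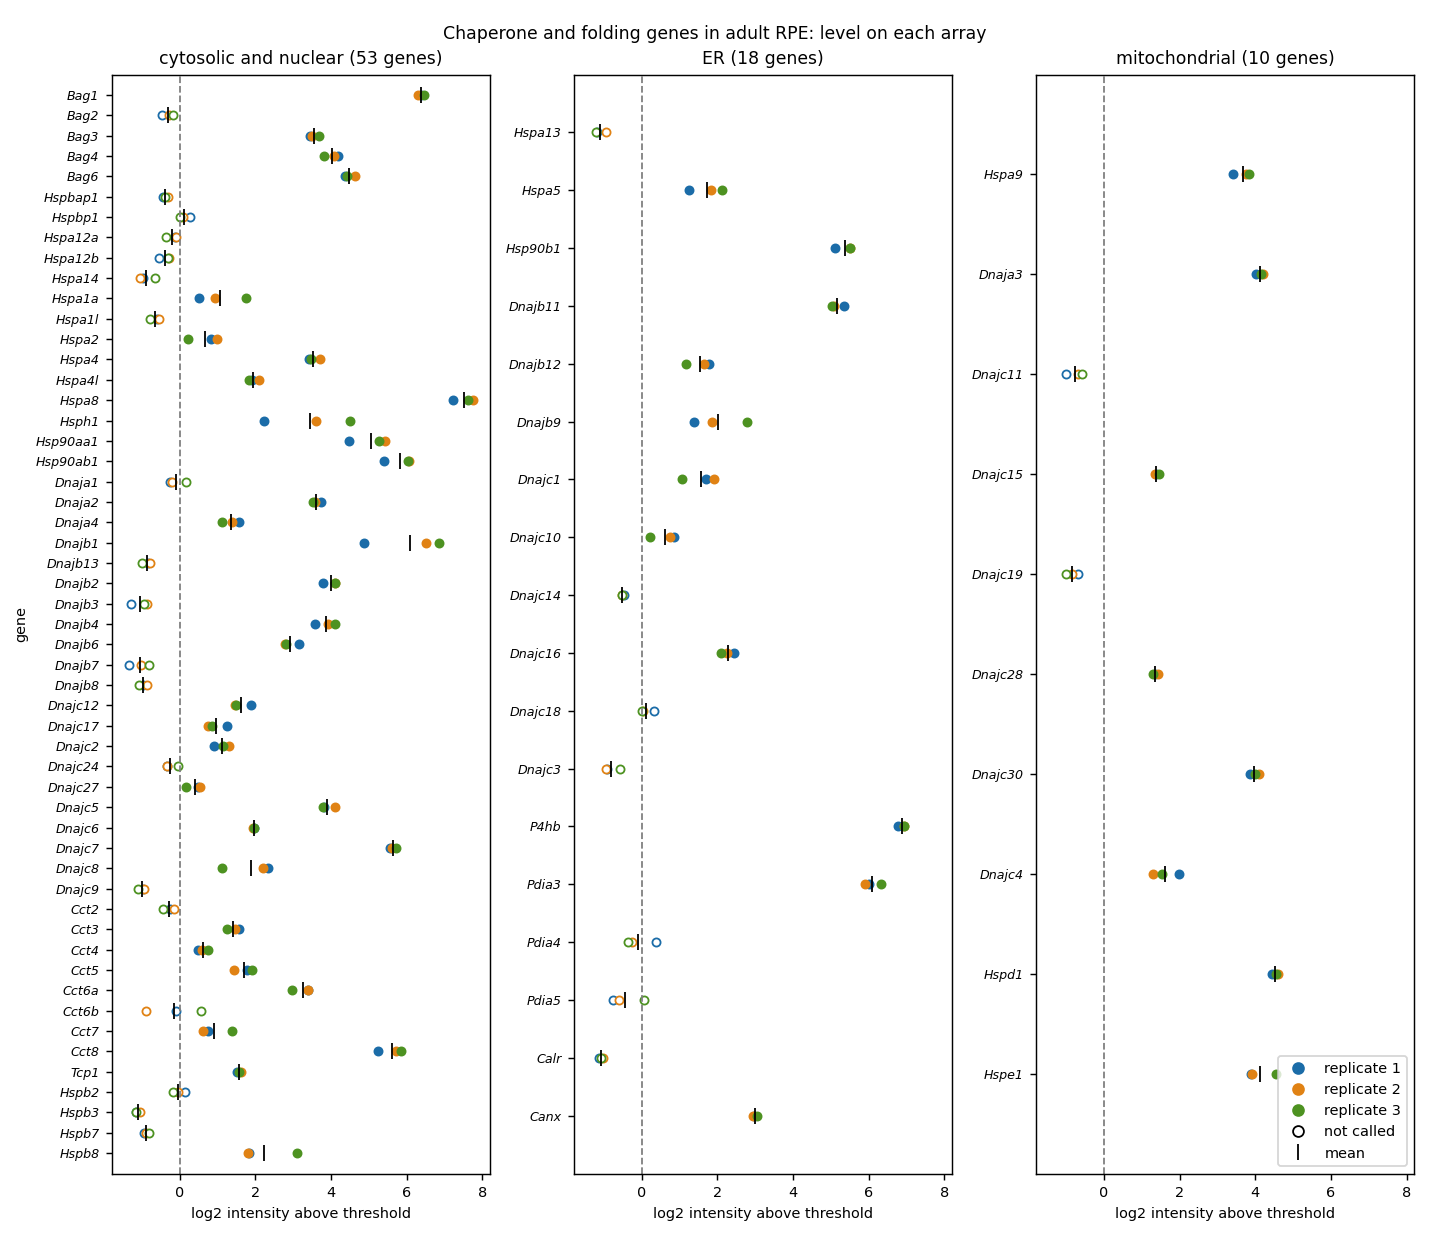
Each row is a gene and each point the normalized log2 intensity above the mCN threshold on 1 replicate, with a bar at the mean of 3, filled where the gene was called and open where not. Rows follow families, distances are from the control spots and do not rank genes, and Dnajb1 and Hsph1 show the widest spread among called members.

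How far a call rests on the choice of oligonucleotide can be read from genes with several probes. Of 33 members with several probes 26 were called, and in 18 of these at least 1 probe was not. Of 49 members with 1 probe 27 were called. Other named genes were called in 51.4% of cases with several probes and in 33.6% with 1. Under a stricter rule, which asked for a call by more than 1 in 2 probes of the gene, 36 members passed (43.9%). The same rule passed 27.7% of all named genes. In the ER 5 of 18 passed (27.8%), with Canx among those lost.

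**Figure D3:**
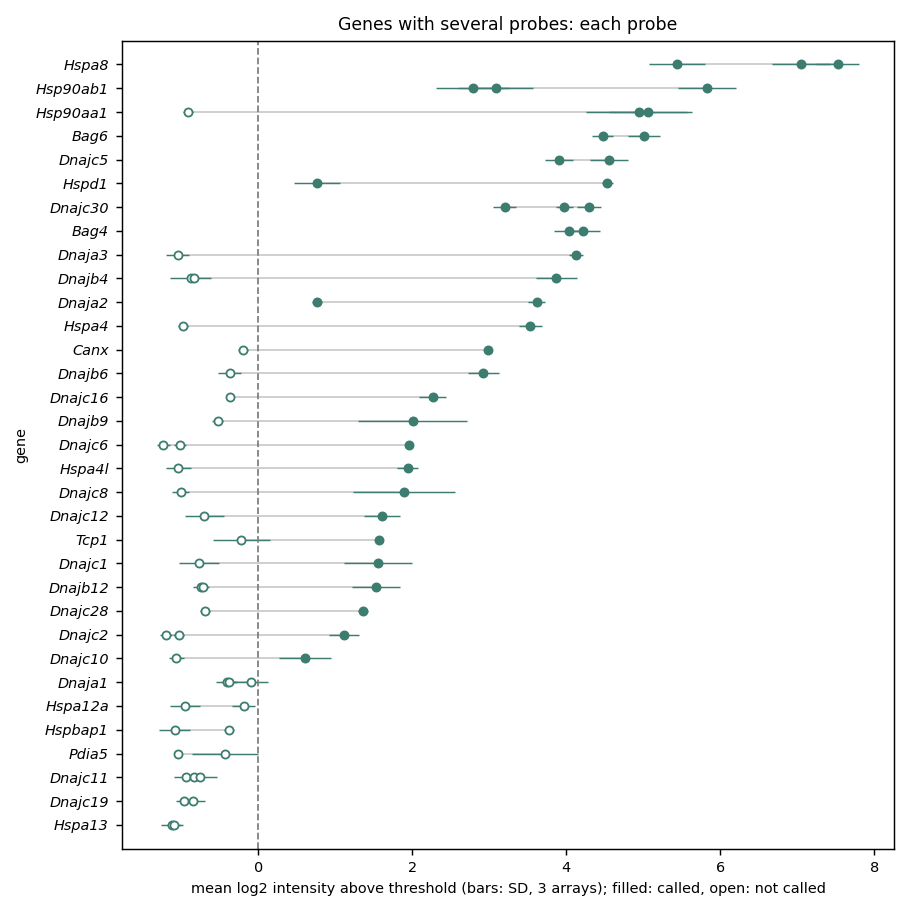
Each point is 1 probe of a gene with several probes, at its mean log2 intensity above the threshold with the SD over 3 arrays, filled where called. Hspa8 and Hsp90ab1 have 3 called probes each, while 18 called genes have at least 1 open point.

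Spread between the 3 samples was the other way in which members differed. Of the 53 called members, 6 had a larger SD than 95% of called probes: Hsph1, Dnajb1, Hspb8, Dnajb9, Dnajc8 and Hspa1a, while the median SD of called members was 0.22 and that of all called genes 0.21. Hsph1 stood at 2.22, 3.60 and 4.51 on the log2 scale above the threshold, and Dnajb1 at 4.88, 6.52 and 6.85. Hspb8 stood at 1.83, 1.80 and 3.09, and Hspa1a at 0.51, 0.93 and 1.75. Hsph1, Dnajb1 and Hspa1a were lowest on replicate 1. All of these genes but Dnajc8 were highest on replicate 3, where Dnajc8 was lowest.

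For genes known to be induced by heat shock factor 1, 11 of 12 with a probe were called, all but Dnaja1. The share called was 64.6% over all members and 39.8% over all named genes. The list holds Hspa8, which is also made without stress, and Hspa4l. Their normalized intensity was lowest on replicate 1 in 7 of 11, against 29.2% of all called genes. It was highest on replicate 3 in 7 of 11, against 29.6%. Over all 53 called members these counts were 20 and 22. Deviations were then set against the median of all called genes on the same array. The median deviation of the 11 was −0.31, 0.02 and 0.28 on replicates 1, 2 and 3 (log2). Median scaling in place of quantile normalization gave −0.38, 0.01 and 0.18, with all called genes themselves displaced by 0.70, −0.08 and −0.61. That common shift carried Hspb8, Hspa1a, Hsp90aa1 and Hspa8 above their own mean on replicate 1, and relative to all called genes each of them stayed below it. Some members outside the list were also low on replicate 1 by this measure after quantile normalization. Hsp90ab1 was at −0.43, 0.20 and 0.23, and Cct8 at −0.37, 0.08 and 0.28. Others were high there, such as Dnajb6 at 0.23, −0.17 and −0.06.

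Among genes known to be induced by ER stress, 7 of 11 were called (63.6%), near the 64.6% of all members. Of all named genes 39.8% were called. Their median deviation was −0.11, 0.01 and 0.17 relative to all called genes, and −0.17, 0.04 and 0.13 under median scaling. Dnajb9 stood at 1.39, 1.85 and 2.78 above the threshold, and Hspa5 at 1.24, 1.83 and 2.13. P4hb, at 6.77, 6.94 and 6.94, varied little. Dnajb11, at 5.34, 5.07 and 5.03, and Dnajc10, at 0.86, 0.75 and 0.22, were highest on replicate 1. Both lists were drawn up with earlier results of these data known, so their direction is a description.

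**Figure D4:**
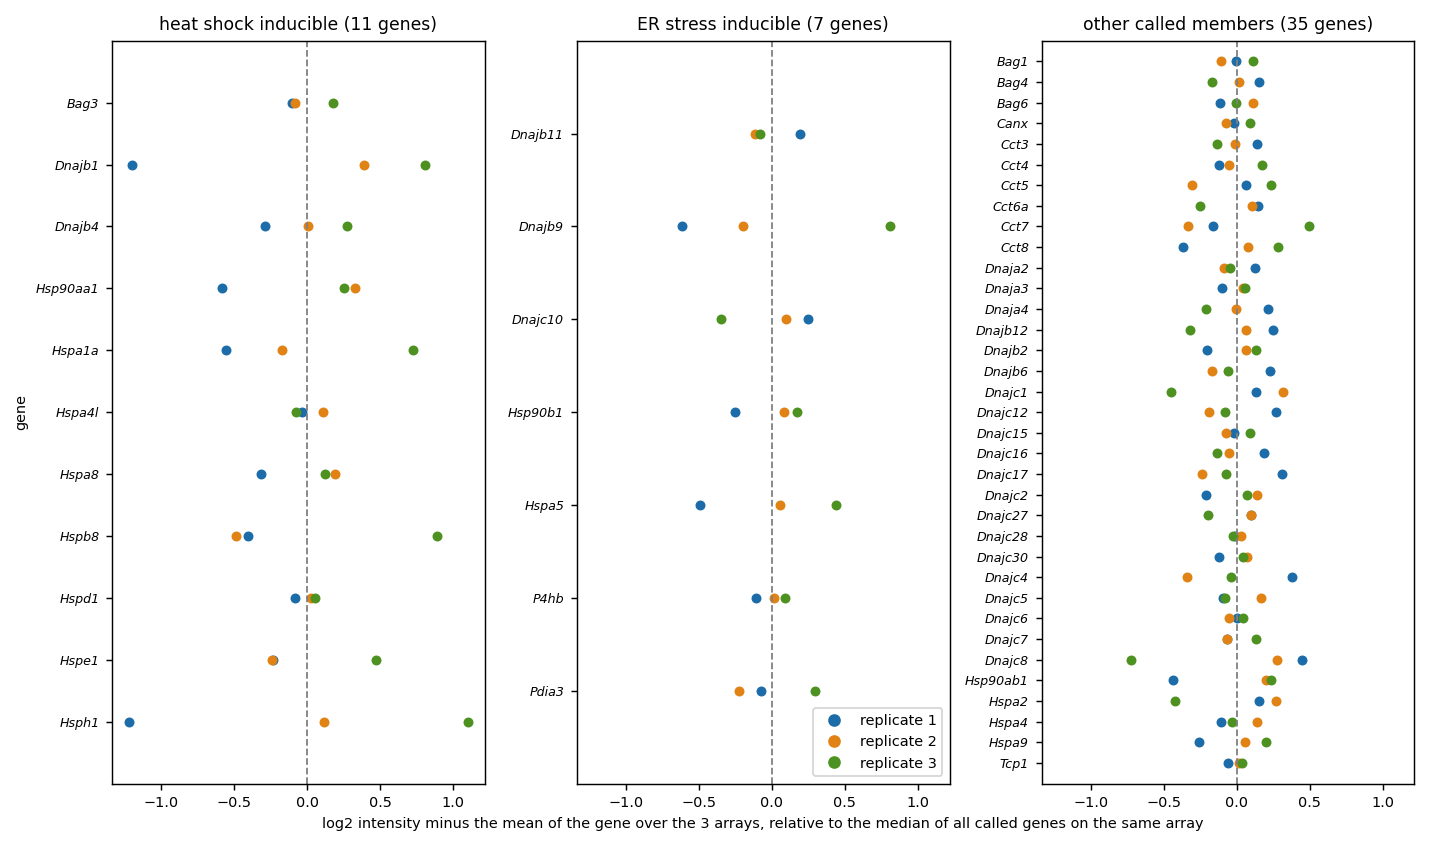
Each point gives a called member's normalized log2 intensity on 1 replicate, minus its mean over 3 and relative to the median of all called genes on that array, for heat shock inducible, ER stress inducible and other members. After quantile normalization, replicate 1 lies left of 0 for all 11 heat shock inducible genes, farthest for Hsph1 and Dnajb1, while Dnajc8 has replicate 3 at the far left.

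Some markers of other cell types also differed between the arrays. Of the 4 cornea and conjunctiva keratins, 0, 4 and 4 exceeded the threshold on replicates 1, 2 and 3, with a summed level of 2.77, 263 and 524 multiples of the threshold. None of the 4 was called (limma, 0 by adjusted p and 4 at an unadjusted p under 0.05). The sum of 8 rod genes was 65.2, 75.4 and 122. In that sum Rom1 varied little, at 5.75, 5.99 and 6.11 on the log2 scale above the threshold. Gnat1 stood at 2.72, 2.71 and 4.95, with 1 of 2 probes called. Among 4 choroid stroma genes, summing to 6.14, 4.62 and 20.2, only Dcn was called, by 1 of its 4 probes. That probe, at 2.12, 1.47 and 4.17 on the log2 scale, was the largest part of the sum on each array. Col1a1 read 15, 16 and 17. Markers of endothelium (0 of 4, sums of 2.33, 2.84 and 2.53), leukocytes (0 of 3, sums of 1.56, 1.76 and 1.98) and inner retinal neurons (0 of 4, highest sum 2.32) were not called. Of 3 blood markers 2 were called, with sums of 123, 138 and 144, and of 5 lens markers 1, with sums of 9.17, 6.15 and 6.51, highest on replicate 1. The 12 heat shock inducible genes summed to 274, 439 and 467, and the 12 RPE markers to 1463, 1714 and 1594. Hspa8 was the largest part of the heat shock sum, at 7.21, 7.75 and 7.61 on the log2 scale above the threshold. In bulk RNA, more cells of a type and more RNA per cell cannot be told apart. The part of these cells, and of the separate scan of replicate 3, in the chaperone values was not tested.

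**Figure D5:**
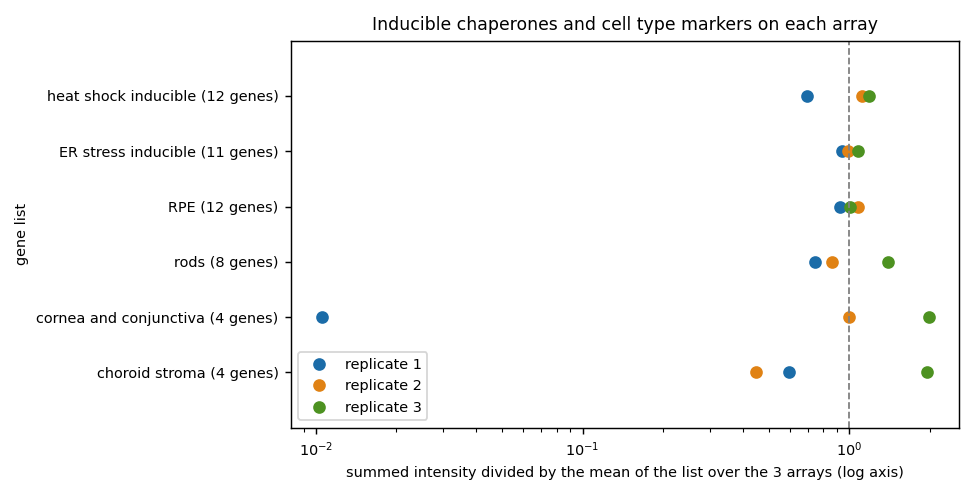
Each point is the summed intensity of a gene list on 1 replicate, in multiples of the threshold, divided by the list's mean over the 3 arrays, on a log axis. The sums of RPE markers and of ER stress inducible genes stay close together, and the heat shock inducible sum is lowest on replicate 1. The cornea and conjunctiva keratins spread most, between 2.77 and 524 before division. The brightest genes weigh most, P4hb and Pdia3 for ER stress and Hspa8 for heat shock. Dimmer genes such as Dnajb9 can vary more than their sum.

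Other genes of folding and stress pathways were called in 38 of 51 cases (74.5%), against 39.8% of all named genes. That share also stands beside each pathway list below, and these lists were drawn up with earlier results of these data known. Among Hsp70 and Hsp90 cochaperones 9 of 11 were called, including Stub1, the ubiquitin ligase Chip, with 19653, 10018 and 5617 and a margin of 6.26 ± 0.15. Chordc1, an Hsp90 partner, had 5341, 3873 and 3759 and a margin of 4.97 ± 0.57. Stip1, which bridges Hsp70 and Hsp90, had 6216, 3404 and 1782 and a margin of 4.64 ± 0.16. All 3 were highest in plain intensity on replicate 1, the brightest array. After normalization Chordc1 was lowest on replicate 1 and highest on replicate 3, at 4.39, 4.98 and 5.53 above the threshold. Stub1 and Stip1 were then lowest on replicate 3. Ppid, a cyclophilin that binds Hsp90, had 4374, 2235 and 1614 and a margin of 4.23 ± 0.13, and St13, the Hsp70 partner Hip, had 4573, 2017 and 1156 and a margin of 4.05 ± 0.13. Unc45a, a myosin chaperone, had 3172, 2076 and 916 and a margin of 3.78 ± 0.29, and Ahsa1, which activates the Hsp90 ATPase, had 3271, 1514 and 1073 and a margin of 3.72 ± 0.08. Cdc37 and Fkbp5 were not called. Of 5 prefoldin genes 3 were called, with Pfdn6 at 6445, 3638 and 2896 and a margin of 4.92 ± 0.27.

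For the ER folding list 13 of 16 were called (81.2%), against 39.8% of all named genes. After normalization 4 of the 13 were lowest on replicate 1 and 7 on replicate 3. Ppib, the ER cyclophilin, had 23083, 9164 and 5044 and a margin of 6.26 ± 0.34. Erp29 had 5880, 2601 and 1899 and a margin of 4.52 ± 0.08. Hyou1, the ER Hsp110, was not called, nor were Manf and Ero1b.

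In the unfolded protein response list 7 of 9 were called (77.8%), against 39.8% of all named genes. After normalization 5 of the 7 were lowest on replicate 1, against 29.2% of all called genes. Atf4, the factor translated when Perk is active, had 4058, 4524 and 3618 and a margin of 4.89 ± 0.78, with 1 of 2 probes called. Syvn1, a ligase of ER-associated degradation, had 3166, 2329 and 1463 and a margin of 4.05 ± 0.35. Xbp1, whose messenger RNA is spliced by Ire1, was not called by its 1 probe, nor was Edem1. The mitochondrial list had 5 of 7 called, and Grpel1 and Ppif were not. Hsf1, the heat shock factor, was called by 1 of its 2 probes, while Hsf2 and Hsf4 were not called.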

How the data were processed

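RNA of 3 RPE samples was labelled and hybridized to 1 single-colour array each. Per the file headers, the deposited intensities were read at 1 wavelength with GenePix Pro 4.1.1.4 and not normalized. Its flag scores, deposited beside them, marked 23, 21 and 17 of the 125 member spots as not found on replicates 1, 2 and 3. Of the 35078 mouse spots, 11827, 9910 and 8962 were marked so, and none was removed. The authors' value table holds foreground minus background medians, as normalized intensity, times 1 factor per array (2.17, 3.64 and 5.05), with low values set to 1. How these factors were set is not stated.

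Spots were named through transcript accessions in the RefSeq gene table, which matched 23071 of 35078 mouse spots. Background was corrected with normexp (offset 50) over all spots and arrays were quantile normalized with limma 3.58.1 in R 4.3.3. Log2 values minus the array's mCN threshold were tested with an intercept-only fit, after the code was tested on simulated data. The mCN class holds 94 spots, so the threshold rests on few of them, and only 3 arrays limit the precision.

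Members and lists were chosen with earlier results of these data known, and compartments were assigned from general knowledge. Values are given for a core list, for the 5 called members of largest SD, the 5 of smallest margin and the 5 uncalled of largest mean, and for up to 12 called pathway genes of largest margin. A gene is given by the probe with the largest limma statistic. Alternatives changed background, normalization, threshold, probe rule and replicates.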

Additional observations from a re-analysis of the deposited data

How the results depend on the processing

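The count of called members was 53, and it stayed within 1.5 times that under all alternatives: 52 with plain background subtraction, 52 with no normalization (median scaling is the same setting here, since each array's own threshold is subtracted), 65 and 45 with thresholds at the 90th and 99th percentile (53.7% and 30.3% of all named genes), and 36 when more than 1 in 2 probes had to be called. That last rule moved the ER count to 5 of 18 (27.8%), against 11, and 27.7% of all named genes met it. Leaving out 1 replicate gave 49 to 53. Of 46 members given with values, 27 kept their call under each alternative, and 34 with the rule on more than 1 in 2 probes left out. With no normalization and at the 99th percentile, limma estimated 1 spread for all probes, so the p-values of those fits ignore a gene's own spread. The 99th percentile turned the margins of Cct4 to −0.22, Dnajc10 to −0.22, Dnajc27 to −0.43 and Hspa2 to −0.16, and the value table, against 500, turned Dnajc27 to −0.24. At the 99th percentile Cct7, Dnajc2, Dnajc17 and Hspa1a lost their call as well. Cct4, Dnajc10 and Hspa2 did not exceed 500 on all arrays in the value table. Without replicate 1, Dnajc10, Dnajc27 and Hspa2 lost their call, and without replicate 2 Hspa1a did too (adjusted p = 0.0908, limma). No paired analysis was possible because there was 1 group.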
